A study of Mus musculus with 6 samples.

Results

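Polyadenylated RNA of unmutated mouse crypt epithelium was described from the 3 control libraries of a series of 6, all of them columns of 1 table of 24930 genes. All genes of the 3 control columns were used. The other 3 libraries, from β-catenin GOF/+ crypts with 1 mutant β-catenin allele, entered no value given here. Control crypts are those that the series text sets against mutant crypts at day 4 after induction. The labels give neither the strain, age, sex and gut segment of the mice nor the control genotype or the agent used for induction. They also do not say whether the 3 libraries came from separate mice, so the spread between them may in part be technical. Sex-linked genes, given below, had the female pattern in control replicate 3 and the male pattern in the others. With a single group there was no contrast to test, and the values are given as descriptions with no p-value.

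Crypts are the pits of the intestinal lining in which the epithelium renews itself. Crypt base columnar stem cells sit at the bottom between Paneth cells, which secrete antimicrobial peptides and stem cell signals. Daughter cells divide above them and become absorptive enterocytes or one of the secretory types, which are goblet, enteroendocrine, tuft and Paneth cells.

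The deposited values, called units here, are a normalized abundance per gene. The lowest values fell in steps. In genes with a single annotated transcript of at least 3000 bases, the value times the length clustered at 71.9, 69.8 and 50.3 in control replicates 1, 2 and 3, and a second cluster, looked for around the double, lay at 1.99, 2.00 and 2.01 times that. The first cluster held 41 of 60, 27 of 42 and 33 of 78 low values. The values thus behaved as reads divided by transcript length, and levels of different genes are compared on this scale, per length. A unit in a transcript of 1000 bases corresponded to about 13.9, 14.3 and 19.9 reads in the 3 libraries, which makes control replicate 3 the most deeply sampled per unit. Totals came to 1268771, 886363 and 756929 units, a 1.68-fold range. Without the alpha-defensin genes they came to 602621, 559118 and 554482 units, a 1.09-fold range, so the libraries differed in total mainly by the units of 1 gene family.

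Alpha-defensins of Paneth cells led the ranking in every control library. These genes encode small secreted peptides that kill bacteria in the crypt lumen. Defa24 was first in all 3 libraries, with 170009, 86080.2 and 46689 units, or 13.4, 9.71 and 6.17% of all units. Defa23 had 94191, 46698 and 22542 units, Defa17 had 86854, 45343 and 22618 units, and Defa30 had 67715, 39593 and 15957 units. The same 4 genes held the first 4 ranks in each library, and each stood highest in control replicate 1 and lowest in control replicate 3. Of the 25 genes with the highest mean, 19 were among the first 25 of every library. They held 63.0, 43.8 and 34.0% of the units when each library's own first 25 were taken, and 49.1% in the mean profile.

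The first 4 defensins by mean are near copies of each other, and the last 108 coding bases before the stop codon, from GENCODE transcripts of build GRCm38, show this beside Defa36 at rank 6, which is less alike. AY761184, at rank 5, is not printed, since it has a longer coding sequence and only 63.6% identity with Defa24. Capitals mark bases that differ from Defa24.
Defa24: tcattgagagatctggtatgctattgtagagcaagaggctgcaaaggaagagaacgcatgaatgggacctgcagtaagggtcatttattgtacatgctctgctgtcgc
Defa30: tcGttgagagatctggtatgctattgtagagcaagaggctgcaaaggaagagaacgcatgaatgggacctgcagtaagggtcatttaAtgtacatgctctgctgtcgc
Defa23: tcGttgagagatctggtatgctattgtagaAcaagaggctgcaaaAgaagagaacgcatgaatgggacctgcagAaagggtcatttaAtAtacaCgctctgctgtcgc
Defa17: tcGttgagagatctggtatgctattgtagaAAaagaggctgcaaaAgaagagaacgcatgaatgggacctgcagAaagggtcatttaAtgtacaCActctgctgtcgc
Defa36: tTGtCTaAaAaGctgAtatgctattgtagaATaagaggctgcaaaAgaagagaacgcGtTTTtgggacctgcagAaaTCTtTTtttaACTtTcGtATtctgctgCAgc

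Over the whole coding sequence of 279 bases, Defa24 and Defa30 differed at 4 bases (98.6% identity), Defa23 and Defa17 at 6 (97.8%), and Defa24 and Defa36 at 46 (83.5%). Of the stretches of 31 bases in the annotated transcripts, 57.1% of those of Defa24, 70.4% of those of Defa30, 93.2% of those of Defa17 and all of those of Defa23 also occurred in another gene. Reads from such stretches can be split between copies, so the level of a single defensin gene is uncertain, while the sum over the family depends less on the split. The 29 genes of the family pattern held 52.5, 36.9 and 26.7% of the units in control replicates 1, 2 and 3. A further 5 genes with other names had transcripts that aligned to an alpha-defensin over at least 200 bases at 80% identity or more. They were Gm7849, Gm14851, Gm7861, Gm15292 and Gm15293. Gm7849, at rank 8, matched Defa29 at 96.3% of 488 bases and had 23313, 13120.3 and 12894 units. With these 5 genes the family took 42.0 ± 13.4% (mean ± SD, n = 3). All 27 genes of the pattern averaging at least 1 unit were highest in control replicate 1, against 26.4% of all 11723 such genes, and 20 were lowest in control replicate 3, against 37.8%. With library totals made equal the counts were 25, against 3.57% of all genes, and 18, against 3.28%.

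Behind the defensins came other Paneth cell products. The lysozyme gene Lyz1, which encodes an enzyme that cleaves bacterial cell walls, had 26267, 8017 and 8468 units. The lectin gene Itln1 had 17448, 7673 and 4566 units, the ribonuclease gene Ang4 had 19667, 8093 and 1876 units, and the pentraxin gene Mptx2 had 8895, 2614 and 1953 units. Each of these was highest in control replicate 1, by 3.28-fold over the lowest library for Lyz1 and 10.5-fold for Ang4. The matrix metalloproteinase gene Mmp7, whose product activates alpha-defensins, had 1697, 612 and 519 units, and the WNT ligand gene Wnt3 had 11.3, 5.08 and 3.19 units. The first 25 also held Spink4 (rank 20), the translation factor gene Eef1a1 (rank 21) and the antibacterial lectin gene Reg3b (rank 24). Eef1a1 was the highest gene that is not secretory, at 4262, 5377 and 3973 units.

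**Figure D1:**
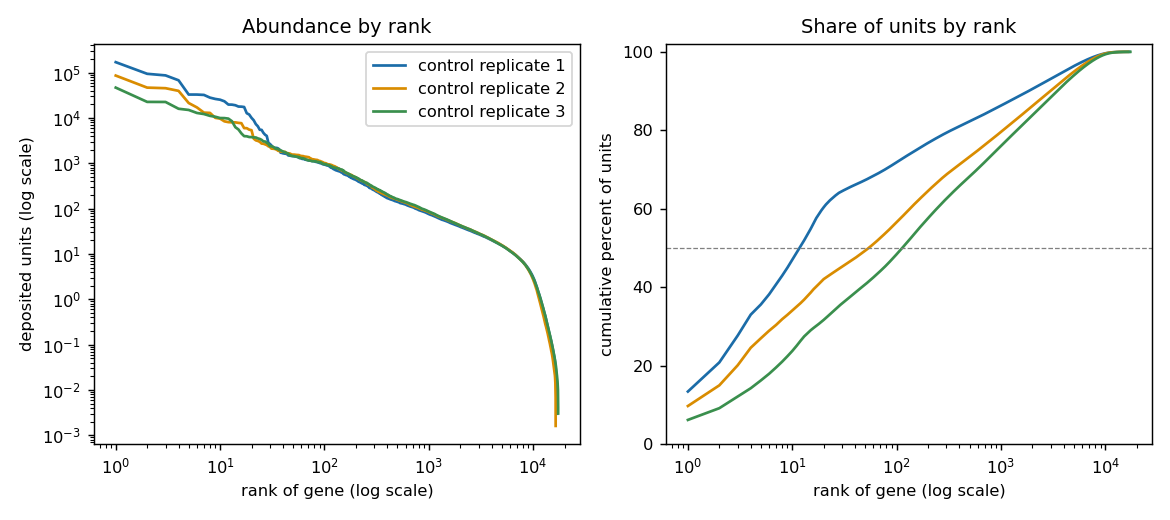
Left, deposited units against the rank of each gene in each control library, both axes on a log scale; right, the cumulative percent of the library's units against rank, with a dashed line at 50%. The curves part over the first ranks, where Defa24 ran from 46689 to 170009 units, and 50% is reached after 12, 54 and 114 genes in control replicates 1, 2 and 3.

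The range of levels was wide, and its upper end varied more than the rest. Units from the lowest value above 0 to the highest spanned 7.75, 7.73 and 7.19 orders of magnitude. The number of genes that held 50% of the units was 12, 54 and 114 in control replicates 1, 2 and 3, and 90% was held by 1837, 2960 and 3444 genes. Below the first ranks the libraries were alike: the gene at rank 1000 had 76.0, 83.9 and 86.7 units and the gene at rank 10000 had 3.08, 2.73 and 2.96 units. Of all genes, 6669 were at 0 in all 3 libraries and 15637 above 0 in all 3. A mean of at least 1 unit was reached by 11723 genes, of at least 10 units by 6642 (26.6% of all) and of at least 100 units by 814 (3.27%).

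Short coding sequences and a TATA motif were frequent among the most abundant genes. The median coding length of the 25 highest genes with a coding sequence was 285 bases, and 84.0% of them were under 500 bases, against 9.41% of the coding genes averaging at least 1 unit. Many of these 25 genes are alpha-defensins, and the ranking is per length. The 100 highest had a median of 426 bases with 64.0% under 500, and 468 bases with 54.0% when alpha-defensins were left out. The motif TATAAA was looked for on the sense strand between positions -40 and -19 from the annotated start in RefSeq promoters of build GRCm38.p6, which 18268 genes had. It occurred in 10 of the 25 highest genes with a promoter, in 11 of the 69 averaging at least 1000 units (15.9%) and in 2.62% of all. Among alpha-defensins 8 of 13 promoters held it, so the counts among the 25 highest and among those averaging at least 1000 units include near copies of 1 family. The motif was not counted with alpha-defensins left out. The median number of CG pairs in the 250 bases before the start was 2.00 in the 25 highest and 16.0 in all genes averaging at least 1 unit.

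The 60 bases before the start are shown, with TATAAA in capitals, for 3 defensin genes and Reg3b, which hold the motif in the window, and for Defa30 and Lyz1, which are also among the 25 highest genes and do not. Efl1, Akirin1 and Cnot8 are among the 10 genes with the narrowest range between libraries. These 9 genes were chosen after their values were seen.
Defa23: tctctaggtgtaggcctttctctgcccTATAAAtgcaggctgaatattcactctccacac
Defa2: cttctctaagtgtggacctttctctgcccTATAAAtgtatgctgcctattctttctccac
Defa22: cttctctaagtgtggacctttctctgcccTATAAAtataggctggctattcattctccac
Reg3b: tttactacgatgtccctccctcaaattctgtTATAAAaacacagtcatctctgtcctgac
Defa30: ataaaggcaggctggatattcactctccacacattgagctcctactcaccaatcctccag
Lyz1: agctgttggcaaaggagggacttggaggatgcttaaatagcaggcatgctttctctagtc
Efl1: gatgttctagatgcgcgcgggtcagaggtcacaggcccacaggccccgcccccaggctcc
Akirin1: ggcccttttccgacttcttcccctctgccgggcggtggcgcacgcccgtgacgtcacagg
Cnot8: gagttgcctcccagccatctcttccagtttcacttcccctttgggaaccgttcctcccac

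In GRCm38.p6 they lie at chr8:21054980-21055039 (Defa23), chr8:21378457-21378516 (Defa2), chr8:21162217-21162276 (Defa22), chr6:78370825-78370884 (Reg3b), chr8:21134590-21134649 (Defa30), chr7:82648554-82648613 (Efl1) and chr11:58092734-58092793 (Cnot8) on the plus strand, and at chr4:123750300-123750359 (Akirin1) and chr10:117292869-117292928 (Lyz1) on the minus strand. The 250 bases before the start held 1 CG pair in Defa23, Defa2 and Defa22, 2 in Defa30 and Lyz1, 3 in Reg3b and in Cnot8, 22 in Efl1 and 26 in Akirin1. Defa36, Itln1, Ang4 and Mptx2 also had no match in the window. In Defa36 the letters tataaa lay upstream of the window, and the bases shown for Defa30 start with ataaa, also upstream of it. The lack of a match can thus depend on where the start is annotated. A match is a run of letters in this window and not a measured site. Among genes averaging at least 1 unit, the motif occurred in 0.780% of promoters where the libraries ranged over less than 0.5 on the log2(value + 1) scale, and in 5.75% where they ranged over at least 1. The group with the wider range also holds alpha-defensin promoters.

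Paneth cell genes took by far most of the units that could be given to a lineage. Lists of known markers were summed in each library, and the lineage lists share no gene. Alpha-defensins and the 15 genes of the Paneth granule and signal list together held 60.2, 40.3 and 29.6% of units in control replicates 1, 2 and 3 (43.4 ± 15.5%, mean ± SD, n = 3). In bulk RNA, fewer cells of a type and less RNA per cell cannot be told apart, so these are shares of transcripts and not of cells. Goblet genes held 1.35, 1.37 and 1.62%, enterocyte genes 0.487, 0.982 and 2.09%, cycling cell genes 0.128, 0.242 and 0.185%, and stem cell genes 0.101, 0.195 and 0.109%. Enteroendocrine genes held 0.128, 0.140 and 0.107%, tuft cell genes 0.0125, 0.0110 and 0.00849%, and M cell genes at most 0.00155%. Ribosomal protein genes, the largest group outside the lineages, held 5.96, 10.6 and 9.64%.

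**Figure D2:**
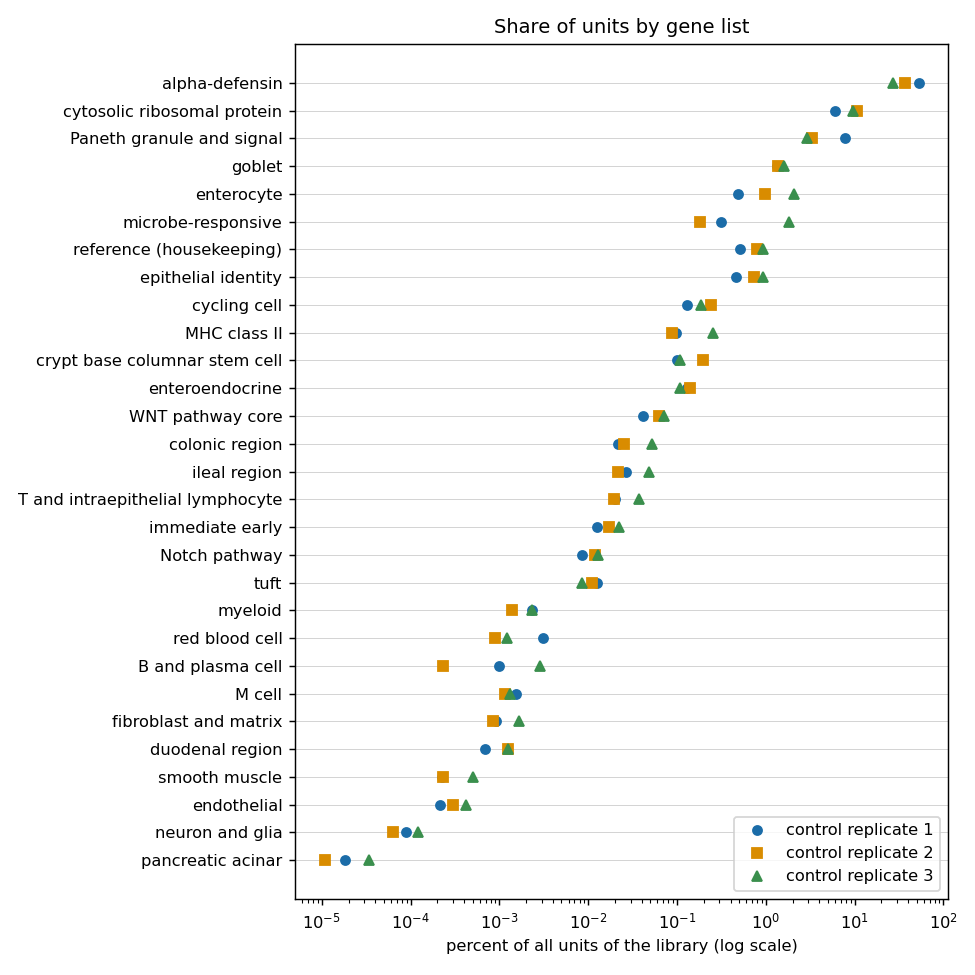
Percent of all units of a library, on a log scale, for each gene list; each symbol is 1 control library. Alpha-defensins lie between 26.7 and 52.5%, lineage lists other than Paneth cells at or under 2.09%, and lists of other cell types at or under 0.0373%, with intraepithelial lymphocyte genes highest among them.

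Stem cell genes were present in every library, and all but Olfm4 averaged under 100 units. Olfm4, a marker of crypt base columnar cells, had 800.4, 1195 and 472 units and made up 64.2% of its list. Slc12a2, an ion cotransporter gene, averaged 97.5 ± 32.4 units (SD, n = 3), and the secreted matrix protein gene Smoc2 had 50.8, 53.8 and 44.5 units, the narrowest range of the list. Lgr5, the R-spondin receptor that defines these cells, had 7.06, 5.75 and 5.03 units at rank 8399, and Ascl2, a transcription factor of stem cell identity, had 4.62, 6.97 and 3.45 units at rank 8859. All 22 members had a mean of at least 1 unit, which 11723 of all 24930 genes had. A mean of at least 10 units was reached by 14, against 26.6% of all genes. Olfm4 was the only 1 of at least 100, against 3.27% of all genes. Of the 22, 21 were lowest in control replicate 3, against 37.8% of all 11723 genes. With library totals made equal that number was 6, against 3.28% of all genes, and 16 were lowest in control replicate 1, as were 86.5% of all genes.

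Genes of dividing cells stood highest in control replicate 2. The histone gene H2afz had 328, 432 and 283 units, Stmn1, which encodes a microtubule regulator, had 208, 288 and 165 units, and the proliferation marker gene Mki67 had 50.9, 78.3 and 46.2 units. Of 24 members, 22 were highest in control replicate 2, against 40.4% of all genes, and 23 with equal totals, against 28.2%. No member had a range of 1 or more on the log2(value + 1) scale, which 7.79% of all genes averaging at least 1 unit had. Ribosomal protein genes went the same way, with 77 of 84 highest in control replicate 2, against the same 40.4% of all genes, and 66 with equal totals, against 28.2%. Olfm4 was also highest there.

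The summed share of goblet cell genes stayed within 1.20-fold in the 3 libraries while single members differed. The trefoil peptide gene Tff3 was the narrowest, at 2673, 2533 and 3043 units. Zg16, a lectin of the mucus, was the widest, at 566, 815 and 3446 units and highest in control replicate 3. Spink4, a peptidase inhibitor, had 10068, 5956 and 2836 units, the opposite order, and made up 45.4% of the list. The steady sum thus adds members that went opposite ways. Without Spink4 the mean share was 0.833%, against 1.45%. The gel-forming mucin gene Muc2 had 396, 166 and 317 units. Of 18 members, 15 were highest in control replicate 1, against 26.4% of all genes, and 5 with equal totals, against 3.57%. The lineage factor genes Atoh1 and Spdef had 22.6, 14.4 and 12.4 units and 60.8, 29.8 and 19.1 units.

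Enterocyte genes stood highest in control replicate 3 in every member. The apolipoprotein gene Apoa1 had 698, 953 and 2219 units, and the fatty acid binding protein genes Fabp2 and Fabp1 had 665, 952 and 1945 units and 618, 945 and 1831 units. The disaccharidase gene Sis had 244, 362 and 589.8 units, and Apoc3, the widest member, had 68.6, 149.6 and 295 units. All 26 members were highest in control replicate 3, against 33.2% of all genes, and also with equal totals, where 68.2% of all genes were. As deposited, 23 were lowest in control replicate 1, against 32.6%. The range was at least 1 on the log2(value + 1) scale for 23 of the 26, against 7.79% of all genes averaging at least 1 unit. The summed enterocyte units were 6180.4, 8703 and 15829.8, while the Paneth granule list had 97938, 29645 and 21917 units, with the highest library of one being the lowest of the other.

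Tuft and enteroendocrine genes were low but measured. Tuft cells are chemosensory cells, and their channel gene Trpm5 had 15.7, 9.25 and 6.41 units. Dclk1, a kinase gene used as their marker, had 12.4, 7.34 and 4.48 units. All 12 tuft members averaging at least 1 unit were highest in control replicate 1, against 26.4% of all genes, of 16 measured. With equal totals 8 were, against 3.57%. Enteroendocrine hormone genes included Gip with 72.4, 93.9 and 126 units, Gcg with 45.1, 39.5 and 62.8 units, and Sst with 19.4, 22.2 and 34.8 units. The granin gene Chga averaged 44.7 ± 9.29 units (SD, n = 3). Reg4 made up 65.1% of the enteroendocrine sum and was highest in control replicate 1, at 1248, 857 and 290.1 units, whereas 13 of 19 members were highest in control replicate 3, against 33.2% of all genes. With equal totals 17 were, against 68.2%. Neurog3, the factor that starts this lineage, had 3.81, 3.55 and 3.28 units, the narrowest range among members averaging at least 1 unit.

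**Figure D3:**
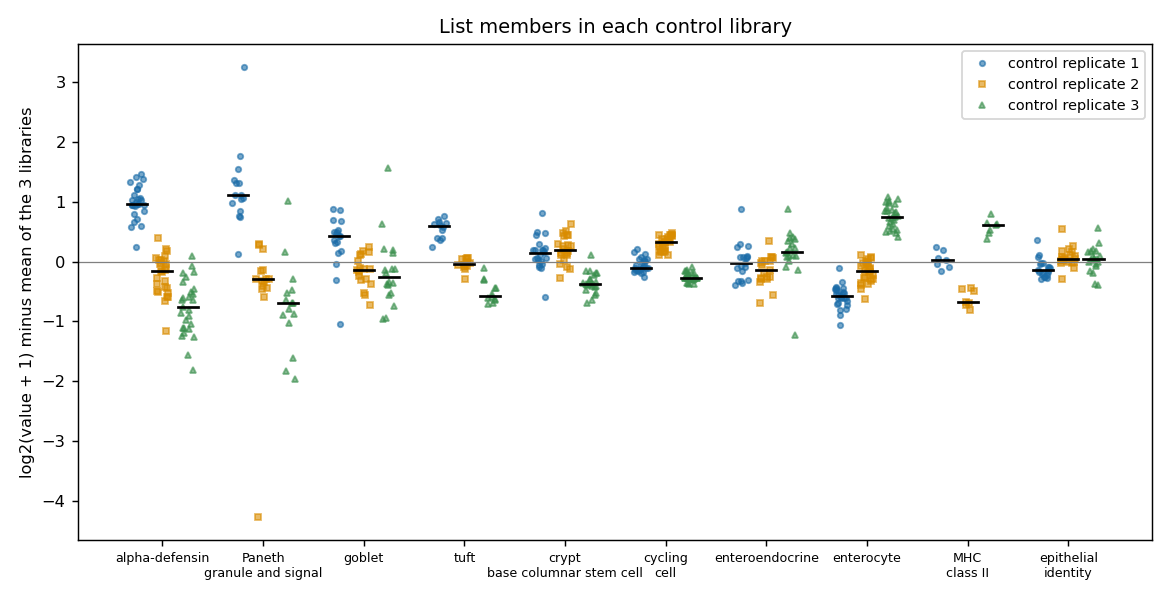
Each point is 1 list member averaging at least 1 unit, as log2(value + 1) minus its mean over the 3 control libraries; black bars are list medians. Paneth medians (0.97 for alpha-defensins) are highest in control replicate 1 and the enterocyte median (0.75) in control replicate 3; with equal library totals the median of all genes moves to -0.39 in control replicate 1, and the goblet median there goes from 0.43 to 0.02.

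The label of epithelium was checked against its markers, which were abundant. Keratin genes Krt8 and Krt19 had 1469, 1631 and 1635 units and 1163, 1361 and 1511 units. The adhesion gene Epcam had 594, 722 and 783 units, and Cdh1, which encodes E-cadherin, averaged 242 ± 12.9 units (SD, n = 3). All 20 epithelial identity genes had a mean of at least 1 unit, which 11723 of all 24930 genes had, and 19 of at least 10 units, against 26.6%. Genes of other cell types together held 0.0277, 0.0234 and 0.0465% of units. Of the 8 B and plasma cell markers listed, 5 were measured, so this share leaves some markers out. Pdgfra, a fibroblast receptor, was at 0 in all 3 libraries, and Col1a1 and Col3a1 were at most 0.104 and 0.134 units. Of 8 endothelial and 8 smooth muscle genes, 1 each had a mean of at least 1 unit (Lyve1 and Tagln), and of 12 fibroblast genes 2 did (Vim and Thy1).

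Genes of lymphocytes that live within the epithelium were the main exception. The chemokine gene Ccl5 had 90.6, 67.0 and 118 units, the granzyme genes Gzma and Gzmb had 74.4, 56.0 and 54.7 units and 38.5, 17.4 and 35.0 units, and the T cell receptor complex gene Cd3g had 11.1, 8.91 and 20.1 units. Of 10 such genes averaging at least 1 unit, 9 were lowest in control replicate 2, against 29.6% of all genes, and 8 were highest in control replicate 3, against 33.2%. With equal totals these counts were 6, against 10.2% of all genes, and 10, against 68.2%. Of the 3 B and plasma cell genes averaging at least 1 unit, 2 were lowest in the same library, Jchain with 9.36, 0.380 and 8.99 units and Cd79a with 1.61, 0.0824 and 5.71 units. Cd79b, with 1.04, 1.46 and 4.19 units, was lowest in control replicate 1. MHC class II genes, which present antigen, moved with these, as all 7 were lowest in control replicate 2, against 29.6% of all genes, and highest in control replicate 3, against 33.2%. Cd74 had 734, 452 and 1129 units and H2-Aa had 167, 110 and 309 units. With equal totals all 7 were highest in control replicate 3, against 68.2% of all genes, and 5 were lowest in control replicate 2, against 10.2%. The part of immune cells in these values was not tested.

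The segment of gut was not stated, and its markers were mixed in level. The bile acid transport genes Slc51a and Slc51b had 79.0, 73.5 and 151 units and 34.6, 44.9 and 66.9 units. Fabp6, the ileal bile acid binding protein gene, had 156, 5.74 and 74.2 units. Slc10a2, the ileal bile acid uptake carrier gene, had 5.07, 2.38 and 3.13 units. Of the genes typical of the colon, Car1 and Hoxd13 were at 0 in all libraries, and of the duodenal genes Pdx1 had at most 0.252 units. Onecut2 and Cybrd1, of the duodenal list, had 3.49, 6.23 and 4.62 units and 4.17, 2.61 and 1.66 units, near the level of Slc10a2. Car4 had 272, 223 and 396 units and made up 98.9% of the sum of the colonic list.

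WNT and Notch pathway genes were measured in every library, mostly at moderate or low levels. Ctnnb1, which encodes β-catenin, had 246, 248 and 273 units. Its target gene Axin2, a feedback inhibitor of the pathway, averaged 28.9 ± 6.85 units (SD, n = 3). Of the TCF factor genes, Tcf7l2 had 9.58, 6.39 and 7.75 units and Tcf7 had 4.80, 3.61 and 3.83 units, while Lef1 and Tcf7l1 were at most 0.197 and 0.150 units. The median range of the 16 WNT pathway genes averaging at least 1 unit was 0.26 on the log2(value + 1) scale, and that of 7 Notch pathway genes 0.32, against 0.35 over all 11723 genes. Within the WNT list the widest was Porcn, with a range of 1.02, and Tcf7l2 had 0.52, while Ctnnb1 had 0.15. The Notch target gene Hes1 had 31.9, 37.0 and 29.6 units and the ligand gene Dll1 had 11.2, 12.3 and 15.6 units.

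For a typical gene the 3 libraries lay close together. The median SD of log2(value + 1) over 11723 genes was 0.18, and the median coefficient of variation was 14.3%. The median absolute log2 difference was 0.21 between control replicates 1 and 2, 0.19 between 1 and 3 and 0.24 between 2 and 3. Spread was lowest at 10 to 30 units, with a median SD of 0.16, and reached 0.23 at 1 to 3 units and 0.26 at 1000 units or more. A range of at least 1 was found for 913 genes, 7.79% of all, but for 37 genes at 1000 units or more (36.6%). Most of these 37 are alpha-defensins or other Paneth cell genes, so the percent at this level largely reflects 1 lineage. Among members averaging at least 1 unit, such a range was found for 26 of 27 alpha-defensins and 14 of 15 Paneth granule and signal genes. It was found for 2 of 84 ribosomal protein genes, which are also abundant. Counting error, estimated from reads behind 1055 genes with a single annotated transcript, made up a median of 31.7% of the variance at 1 to 3 units and 2.37% at 30 to 100 units.

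**Figure D4:**
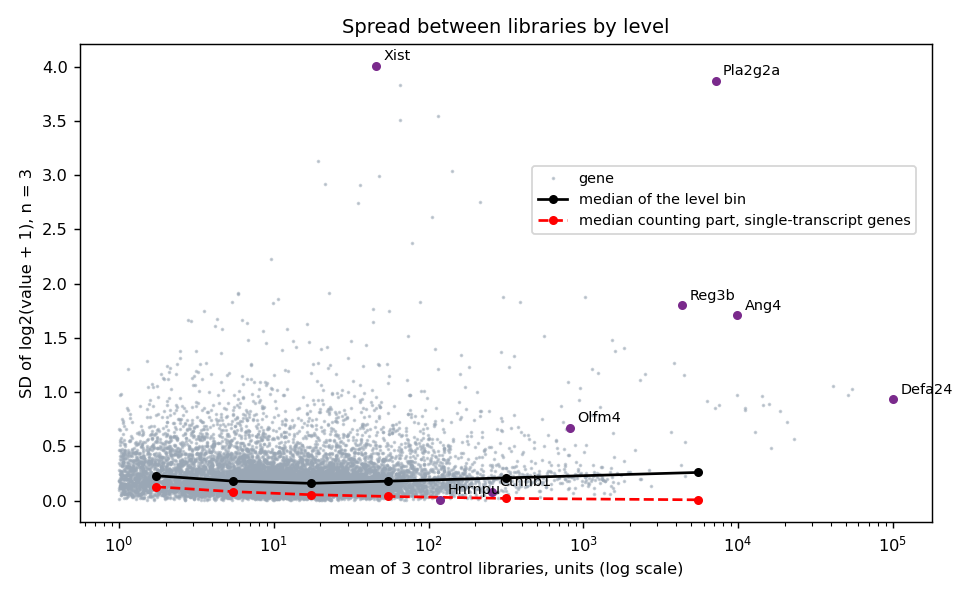
SD of log2(value + 1) over the 3 control libraries against the mean level (log scale); grey points are genes averaging at least 1 unit, black points the median of each level bin, and red points the median SD that counting alone would give in genes with a single annotated transcript. The black line runs from 0.23 over 0.16 to 0.26, while the red line falls from 0.128 to 0.008; Pla2g2a, Xist, Reg3b and Ang4 lie far above both.

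The genes with the narrowest ranges among those averaging at least 10 units had nearly the same value in each library. Efl1, a ribosome assembly GTPase, had 12.7 units in each library, and Hpcal1, a calcium sensor, had 19.5, 19.5 and 19.4 units. The protease gene Capn7 had 18.9, 18.7 and 18.8 units, and Cnot8, a subunit of the deadenylase complex, had 25.7, 26.0 and 25.8 units. Genes often used as references had ranges on the log2(value + 1) scale from 0.11 (Rplp0) to 0.87 (Actb), with a median of 0.42 over 14 genes, against 0.35 over all genes. Actb had 679.6, 493 and 902 units, and Gapdh, with a range of 0.21, had 838, 852 and 967 units.

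In 14 genes averaging at least 10 units, 1 library lay more than 10-fold from both others. Pla2g2a, a secreted phospholipase of Paneth cells, had the widest range on the log2(value + 1) scale of all genes averaging at least 10 units, with 17763, 94.6 and 3725 units and ranks 16, 870 and 21. None of its stretches of 31 bases occurred in another gene. Some inbred mouse strains carry a disrupted copy of this gene, the labels give no strain, and a part of strain in these values was not tested. The MHC class I gene H2-L followed the same libraries, with 96.7, 0.452 and 97.9 units, as did Fabp6 above. LOC547349, listed by RefSeq with the synonym H2-K1, was instead low in control replicate 1, at 1.45, 155 and 188 units. Dynlt1b (5.75, 115 and 194 units) and BC002163 (0, 114 and 83.3 units) were low in the same library. Both have near copies: Dynlt1b shared 82.7% of its stretches of 31 bases with Dynlt1c, and BC002163 shared 81.0% with Ndufs5, so their values are uncertain.

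Control replicate 3 was the low library for 6 of the 14 genes. Retnlb, a resistin-like antimicrobial protein gene of goblet cells, had 84.7, 22.9 and 0.644 units. The phospholipase gene Pla2g4c had 283, 136 and 4.42 units, and Sprr2a3, a cornified envelope protein gene that microbes can induce, had 474, 164 and 10.8 units. Its near copies Sprr2a1 and Sprr2a2 went the same way, and 73.4% of the stretches of 31 bases of Sprr2a3 occurred in Sprr2a1. Reg3b and Reg3g were instead highest in control replicate 3 and lowest in control replicate 2, with 2251, 833 and 9968 units and 1413, 503 and 3545 units. The oxidase genes Duox2 and Duoxa2 had 100.1, 41.2 and 21.8 units and 54.3, 33.9 and 6.82 units. Genes known to respond to microbes thus did not share 1 order among the libraries.

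Sex-linked genes also set control replicate 3 apart. Xist, which is expressed from the inactive X chromosome, had 0.131, 0.119 and 137 units, the Y-linked gene Eif2s3y had 36.9, 27.7 and 0 units, and Ddx3y had 14.7, 13.9 and 0.0538 units. With 1 library of the female pattern, sex and all else that differs in control replicate 3, such as its enterocyte, REG3 and MHC class II levels, cannot be told apart.

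**Figure D5:**
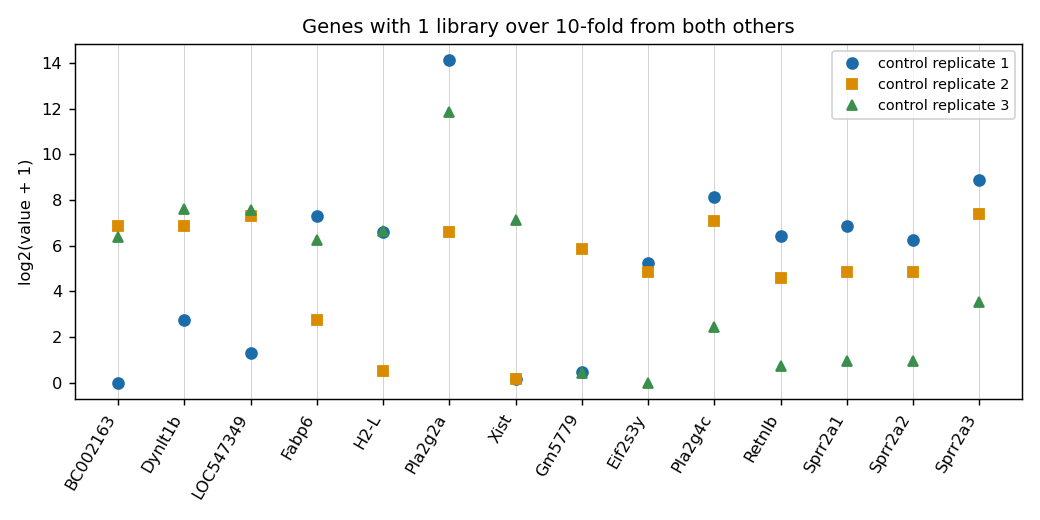
log2(value + 1) in each control library for the 14 genes averaging at least 10 units in which 1 library lay more than 10-fold from both others. The library apart is control replicate 1 for 3 genes, control replicate 2 for 4 and control replicate 3 for 7; Pla2g2a runs from 94.6 to 17763 units.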

How the data were processed

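Per the labels' protocols, poly-T purified RNA was made into randomly primed cDNA libraries for Illumina sequencing. The authors deposited 1 signal value per gene and library, a normalized abundance. Kallisto 0.46.1, DESeq2 1.40.1 and build mm9 are named in the submitters' processing notes without role. How they were scaled, and on which annotation, was not given in the sources used here. 0 columns lacked a sample, and 24 rows carry calendar dates as names.

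Columns were matched to samples by name. Members and lists were chosen with earlier results of these data known. Named genes are the 25 highest by mean, the 4 highest of each list, the widest and narrowest of each lineage list, the 10 widest and 10 narrowest averaging at least 10 units, and 14 fixed markers; other genes were chosen after their values were seen. Spread is the SD of log2(value + 1) over genes averaging at least 1 unit. Of 345 list symbols, 4 were not analysed here, nor were mitochondrially encoded genes. Values after ± are the SD over the 3 libraries. Reads per unit were estimated from steps among low values. On simulated data the step came out within 3.87% (900 genes) and the root of the mean squared SD within 1.00% (11723 genes). The median SD, which is the value given in the results, was not checked in this way. Symbols matched GENCODE M21 for 24395 genes, coordinates are of GRCm38 and not of mm9, and transcripts were aligned with BLAST+ 2.17.0. Python 3.11.15, pandas 2.3.3, NumPy 2.4.6 and Biopython 1.88 were used. Alternatives covered scaling, pseudocount, filter, denominators, list membership and each library left out.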

Additional observations from a re-analysis of the deposited data

How the results depend on the processing

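No paired analysis was possible because the results come from 1 group and from no test. The 25 highest genes held 46.4% of units with equal library totals and between 38.9 and 54.9% when each library was left out, against 49.1%. All 25 remained among the first 25 with equal totals, and 23 with the median over libraries or without control replicate 1. The number of genes that hold 50% of units was 245 instead of 28 without alpha-defensins, and ran from 17 to 82 with each library left out. The Paneth share was 8.50% with alpha-defensins left out altogether, 9.83% with ribosomal protein genes left out as well, and 46.7% with the 5 aligned genes, which were added after seeing the data, against 43.4%. Genes of other cell types held 0.0530% without alpha-defensins, against 0.0325%. The median SD was 0.204 and 0.131 with pseudocounts of 0.1 and 5, 0.092 without a filter and 0.395 with equal totals, against 0.183, and ran from 0.134 to 0.173 with each library left out. Genes with a range of at least 1 numbered 1390 and 417 with those pseudocounts and 2459 with equal totals, against 913, and 329 to 566 with a library left out. With a library left out, the SD and the range are taken over fewer libraries, which by itself lowers both. Those values thus do not show how far the spread depends on a single library. For the lineage shares, 33 of 52 alternative values moved by less than the SD between libraries. The median member was highest in the same library as the summed units for 8 of 9 lineage lists, all but the enteroendocrine list. Depth limits the values at 1 to 3 units most, which rest on a median of 57.8 reads.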

Other observations

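Genes not typed as protein-coding by GENCODE added little to the profile but varied more. Of the 24930 genes, 2195 were long non-coding by GENCODE and 376 pseudogenes, and they held at most 0.519 and 1.80% of the units of a library. Of 115 pseudogenes averaging at least 1 unit, 32 (27.8%) had a range of at least 1 on the log2(value + 1) scale, against 811 of 11125 protein-coding genes (7.29%). Rpl34-ps1, a copy of a ribosomal protein gene, had 90.3, 949 and 124 units, and Gm5779 had 0.384, 57.5 and 0.337 units. Rpl34 itself was instead lowest in control replicate 2, at 989, 387 and 858 units, so the level of the copy is uncertain. A split of reads between Rpl34 and its copy was not tested.

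Adult beta-globin genes, which are markers of red blood cells, differed in their mix between the libraries. A trace of blood was not tested. Hbb-bs and Hbb-bt had 16.5, 1.80 and 2.17 units and 4.26, 0.296 and 0 units in control replicates 1, 2 and 3. Hbb-b1 and Hbb-b2 had 0, 3.07 and 2.66 units and 0, 0.307 and 0.665 units. Control replicate 1 was thus above 0 only for the first pair, while control replicates 2 and 3 were above 0 for genes of both. These pairs are known as the beta-globin genes of different mouse haplotypes. Of the stretches of 31 bases of Hbb-bs, 54.4% occurred in Hbb-bt, so their values are uncertain at these low levels.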
